A study of Mus musculus with 9 samples.

Results

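Glycolysis splits glucose into pyruvate in the cytosol, and lactate dehydrogenase turns that pyruvate into lactate. Hexokinase traps glucose as a phosphate, phosphofructokinase is the committed and most regulated step, and the enzymes from aldolase to pyruvate kinase cleave the sugar and recover ATP. The genes of most steps have several isoenzymes with tissue-specific use, and many are known targets of the hypoxia-inducible factors (HIF) and of MYC. Dividing lymphocytes, developing thymocytes among them, are known for high glycolytic flux.

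The transcripts of 10 enzymes of this pathway were followed: Hk1, Hk2, Gpi1, Pfkl, Pfkp, Aldoa, Pgk1, Eno1, Pkm and Ldha. A member was measured where the array's annotation gave a probe set that symbol and no other. This was the case for 8 of the 10 genes, with 19 of the 34945 probe sets that carry a single symbol. Gpi1 and Eno1 had no probe set of that kind in the annotation used here and are not analysed here. The samples were stromal preparations of the thymus, where T cells develop, from female C57BL/6J mice with a labelled age of 6-8 wo. All 3 groups of 3 samples had been depleted of CD45-bearing blood cells with magnetic beads. They came from untreated mice, from mice 4 days after SL-TBI and from mice 7 days after it, and each was read on 1 Affymetrix mouse expression array. SL-TBI is usually read as sublethal total body irradiation; its labelled dose was 550 cGy from a cesium source, with no hematopoietic rescue. Several mice were pooled to obtain the RNA of a time point, whose pooled cells the protocol calls thymic ECs, an abbreviation it does not spell out, and nothing in the labels shows that replicates of a time point were pools of their own. The spread behind each p-value is thus that of the samples at hand and may be technical.

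Values are log2 intensities as deposited, and a value of 4 or more was taken as detected. All 8 measured genes had a probe set that was detected on all 9 arrays, and all 8 were among the 10937 genes tested. Differences come from 1 limma model over the 9 arrays, with p-values adjusted by Benjamini-Hochberg over all genes tested and a threshold of 0.05. Precision is limited by having 3 arrays in a group. The preparations were mixed and their make-up differed between groups, which bears on every result below. Ptprc, the gene of CD45, averaged 12.22 in untreated samples, 4.64 at day 4 and 9.51 at day 7. The mean of 11 thymocyte genes lay at 9.46 to 9.81 on untreated arrays, 3.40 to 3.82 at day 4 and 7.06 to 7.21 at day 7, and Cd3e read 5.57 on all 3 day 4 arrays. The mean of 11 genes of dividing cells lay at 8.45 to 9.21, 4.26 to 4.51 and 7.07 to 7.27 in the same order. The mean of 9 fibroblast genes lay at 10.76 to 11.29, 11.99 to 12.38 and 11.72 to 12.02, that of 9 endothelial genes at 4.42 to 6.28, 5.33 to 6.17 and 7.61 to 7.81, and that of 11 epithelial genes at 11.36 to 11.58, 11.59 to 11.73 and 11.50 to 11.64. In such mixtures, fewer cells of a type and less RNA per cell cannot be told apart. The part of these shifts in the results on the enzymes was not tested.

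The 250 bases upstream of 4 of the enzyme genes are shown because these genes moved apart after irradiation: Ldha and Pgk1 were lower at day 4, and Aldoa and Pfkl were higher. Capitals mark ACGTG or GCGTG, the core letters of a HIF response element, on either strand. Sequences are from RefSeq on GRCm38.p6, each in the direction of transcription.
Ldha, chr7:46845554-46845803, plus strand: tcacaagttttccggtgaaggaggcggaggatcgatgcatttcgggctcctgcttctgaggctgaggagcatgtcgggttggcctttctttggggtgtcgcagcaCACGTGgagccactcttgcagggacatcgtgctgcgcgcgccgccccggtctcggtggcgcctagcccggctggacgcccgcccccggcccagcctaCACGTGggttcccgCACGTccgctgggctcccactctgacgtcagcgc
Pgk1, chrX:106186850-106187099, plus strand: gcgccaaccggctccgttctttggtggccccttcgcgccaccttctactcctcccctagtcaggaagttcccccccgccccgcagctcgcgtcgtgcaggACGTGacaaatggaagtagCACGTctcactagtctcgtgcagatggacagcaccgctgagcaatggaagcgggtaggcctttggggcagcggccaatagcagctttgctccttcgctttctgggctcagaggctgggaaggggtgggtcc
Aldoa, chr7:126799255-126799504, minus strand: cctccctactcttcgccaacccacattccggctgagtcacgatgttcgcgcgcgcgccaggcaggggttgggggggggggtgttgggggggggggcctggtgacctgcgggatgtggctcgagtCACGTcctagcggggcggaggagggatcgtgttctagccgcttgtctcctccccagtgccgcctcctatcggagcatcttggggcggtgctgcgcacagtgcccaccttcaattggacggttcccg
Pfkl, chr10:78009808-78010057, minus strand: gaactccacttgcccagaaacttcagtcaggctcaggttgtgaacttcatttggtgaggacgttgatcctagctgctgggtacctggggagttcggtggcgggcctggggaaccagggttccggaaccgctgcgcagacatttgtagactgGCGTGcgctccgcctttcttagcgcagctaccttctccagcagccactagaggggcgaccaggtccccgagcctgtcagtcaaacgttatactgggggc

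The core letters stood in all 4 of these windows. The Ldha window held them 5 times, because each of its 2 copies of CACGTG, the palindromic E-box that MYC proteins bind, counts once on either strand. The Pgk1 window held the core letters 2 times, and the windows of Aldoa and Pfkl 1 time each. RefSeq listed 17 starts for the 10 genes, of which Aldoa and Ldha have others than those shown, and some windows overlap. The letters stood in 13 of these 17 windows (76.5%), against 38.6% of the 32851 different upstream windows of all genes. These windows were not matched on base composition, so the difference in share has no reading of its own. CACGTG stood in 1 of the 17 windows, that of Ldha, against 6.0% of all windows. The enzyme genes that were lower and those that were higher both had the letters, and a match describes the sequence only.

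At day 4 the enzyme transcripts moved in both directions, and by amounts that were small beside those of many other genes. On the deposited scale Pfkl, Aldoa and Pkm were higher than in untreated samples and Pgk1 and Ldha were lower, while Pfkl, Aldoa and Pkm turned lower when the arrays were centred on fibroblast genes. That gave 3 of 8 genes higher, against 41.8% of all genes tested, and 2 of 8 lower, against 21.4% of all genes. In either direction 62.5% of the members were called, against 63.2% of all genes, so the number of calls was near the background. The arrays of 5 of the 8 did not overlap between day 4 and untreated, against 67.7% of all genes. None of the 8 differed by 2-fold or more (0 of 8), whereas 23.2% of all genes were called and differed by at least that much. The largest member difference on this scale was 1.71-fold. The median of the 8 differences was -0.02, against 0.20 for all genes tested, and the median size regardless of sign was 0.32, against 0.50.

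**Figure D1:**
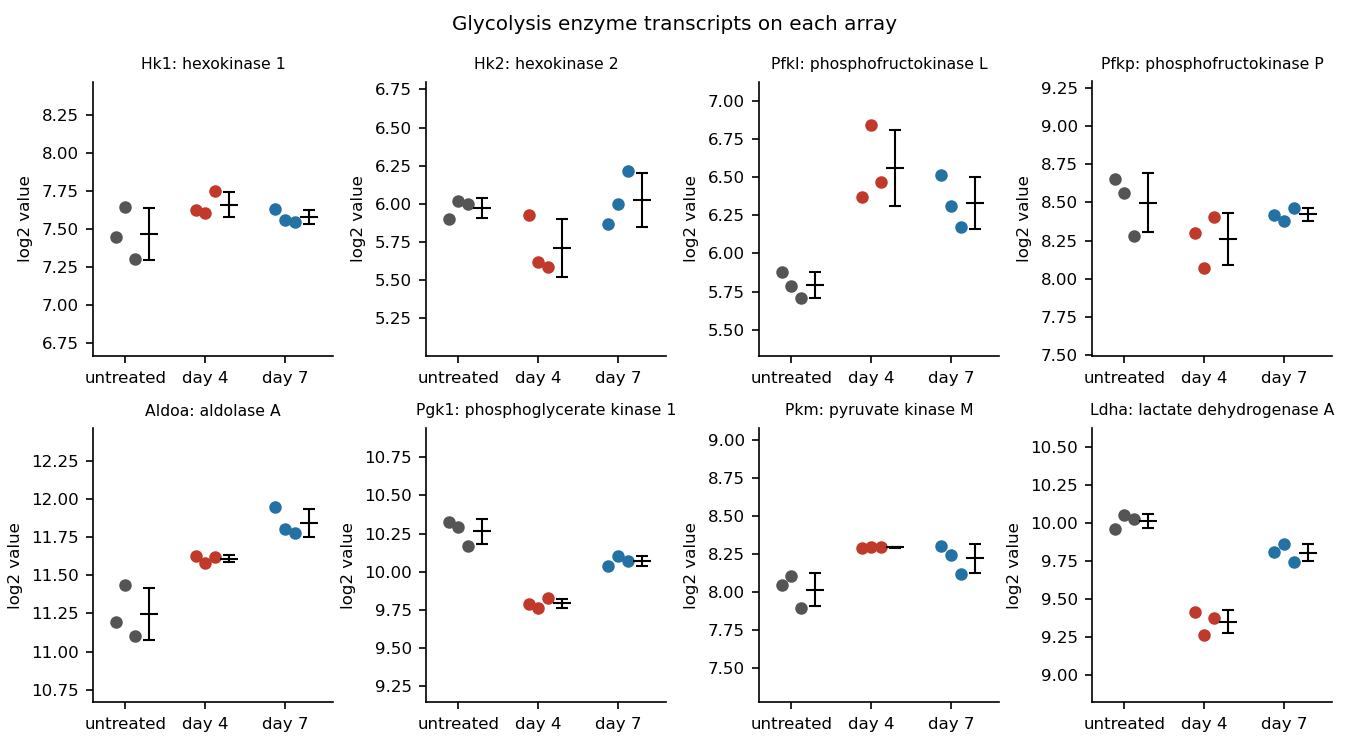
Log2 value of each of the 8 enzyme genes (y axis, each panel spanning the same number of log2 units) on the 3 untreated, 3 day 4 and 3 day 7 arrays; points are arrays, and bars give the mean and SD. Ldha and Pgk1 are lowest at day 4 and lie between at day 7, Pfkl and Aldoa are above untreated at both times on this scale (below it after centring on fibroblast genes), and the points of Hk1, Hk2 and Pfkp overlap between day 4 and untreated.

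Ldha, the lactate dehydrogenase subunit that favours lactate formation, had the clearest drop. It read 9.96, 10.05 and 10.02 on untreated arrays, 9.41, 9.26 and 9.38 at day 4, and 9.81, 9.86 and 9.75 at day 7. All day 4 values lay below all untreated values by more than the spread within either group, and the day 7 values lay between the groups. The day 4 difference from untreated was -0.66 (SE 0.08, adjusted p 0.000138), so the linear value fell by 36.7%. At day 7 the difference from untreated was -0.21 (95% interval -0.39 to -0.02, adjusted p 0.0581), which did not pass the threshold here but passed under 7 of 20 alternatives, quantile normalization among them (-0.24, adjusted p 0.0349). The day 7 value was higher than at day 4 by 0.45 (SE 0.08, adjusted p 0.00478). The day 4 and day 7 minus day 4 calls were kept without each array in turn.

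Pgk1, the first ATP-yielding step, showed the same order of groups. It read 10.33, 10.29 and 10.17 on untreated arrays, 9.79, 9.76 and 9.83 at day 4, and 10.04, 10.10 and 10.07 at day 7. The 3 groups did not overlap. The fall at day 4 was -0.47 (SE 0.08, adjusted p 0.000807). The day 7 difference from untreated was -0.19 (95% interval -0.37 to -0.01, adjusted p 0.0674), and it was called without untreated replicate 3 (-0.24, adjusted p 0.0396) and after quantile normalization (-0.24, 0.0295). From day 4 to day 7 the difference was 0.28 (SE 0.08, adjusted p 0.0306), a call that was lost without any 1 of the 6 arrays of these groups (0.26 to 0.30, adjusted p up to 0.097). The order of groups in Ldha and Pgk1, highest in untreated, lowest at day 4 and between at day 7, is also that of the thymocyte and dividing-cell means given above.

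Pfkl, the liver-type subunit of phosphofructokinase, had the largest difference among the 8 genes on the deposited scale with the brightest probe set; Ldha had the larger one at day 4 under the other scalings and with the mean of probe sets. It read 5.88, 5.79 and 5.71 on untreated arrays, 6.37, 6.84 and 6.47 at day 4, and 6.51, 6.31 and 6.18 at day 7. Day 4 and day 7 values overlapped each other, and both lay above every untreated value. The difference from untreated was 0.77 at day 4 (SE 0.14, adjusted p 0.00125) and 0.54 at day 7 (SE 0.14, adjusted p 0.0102), and day 7 minus day 4 was -0.23 (95% interval -0.55 to 0.09, adjusted p 0.253). With the mean of its 3 probe sets, of which the other two were dim, the differences were 0.26 at day 4, still called, and 0.05 at day 7 (adjusted p 0.694). Both turned to -0.39 and -0.31 when the arrays were centred on fibroblast genes.

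Pfkp, the platelet-type subunit of the same enzyme, did not pass the threshold in any comparison. It read 8.65, 8.56 and 8.28 on untreated arrays, 8.30, 8.07 and 8.41 at day 4, and 8.42, 8.38 and 8.47 at day 7, so that all groups overlapped. The day 4 difference was -0.24 (95% interval -0.52 to 0.04, adjusted p 0.118), but it was called when untreated replicate 3 was left out (-0.35, adjusted p 0.0282) and under all 4 other scalings (-0.35, -0.33, -0.41 and -1.40, adjusted p up to 0.0483). Whether the responses of Pfkl and Pfkp differ was not tested.

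Aldoa, which cleaves fructose 1,6-bisphosphate, read highest at day 7 and lowest in untreated samples. It read 11.19, 11.44 and 11.10 on untreated arrays, 11.63, 11.58 and 11.62 at day 4, and 11.95, 11.81 and 11.78 at day 7, with no overlap between groups. The rise over untreated was 0.36 at day 4 (SE 0.10, adjusted p 0.0136) and 0.60 at day 7 (SE 0.10, adjusted p 0.00142). The day 7 minus day 4 difference was 0.24 (95% interval -0.0007 to 0.47, adjusted p 0.123), which did not pass. Centring on epithelial genes removed the day 4 call (0.19, adjusted p 0.165), and centring on fibroblast genes turned both directions (-0.80 and -0.26).

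Pkm, the pyruvate kinase of most tissues other than liver and red cells, had the smallest of the called differences. It read 8.05, 8.10 and 7.90 on untreated arrays, 8.29, 8.30 and 8.29 at day 4, and 8.30, 8.24 and 8.12 at day 7. The day 4 values were nearly identical and lay above all untreated values. The day 4 difference was 0.28 (SE 0.09, adjusted p 0.0226). Leaving out untreated replicate 3 ended that call (0.22, adjusted p 0.0643), as did leaving out day 4 replicate 1, 2 or 3 (0.28 each, adjusted p 0.0562, 0.0548 and 0.0516). It was also lost after centring on all genes tested (0.17, adjusted p 0.117), after quantile normalization (0.18, 0.108) and after centring on epithelial genes (0.11, 0.38), and it turned to -0.88 after centring on fibroblast genes. The day 7 difference from untreated was 0.21 (95% interval 0.004 to 0.41, adjusted p 0.0788). Which of the spliced M1 and M2 forms its 1 probe set reads is not stated in what was used here.

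Neither hexokinase, the enzymes that open the pathway, passed the threshold in any comparison on the deposited scale. Hk1, the form of most tissues, read 7.45, 7.64 and 7.30 on untreated arrays, 7.62, 7.61 and 7.75 at day 4, and 7.63, 7.56 and 7.55 at day 7. Its groups overlapped, with differences from untreated of 0.19 at day 4 (95% interval -0.04 to 0.43, adjusted p 0.129) and 0.11 at day 7 (-0.12 to 0.35, adjusted p 0.382). It was called higher at day 4 without untreated replicate 2 (0.28, adjusted p 0.0279) and with array weights (0.19, 0.0451). After centring on fibroblast genes it was called lower at day 4 and day 7 (-0.97 and -0.74, adjusted p 0.000455 and 0.00558). Hk2, the inducible and insulin-responsive form, read 5.90, 6.02 and 6.00 on untreated arrays, 5.93, 5.62 and 5.58 at day 4, and 5.87, 6.00 and 6.21 at day 7. Day 4 replicate 1 stood with the untreated arrays while the other two day 4 arrays were lower. The day 4 difference was -0.26 (95% interval -0.55 to 0.02, adjusted p 0.093), and without day 4 replicate 1 it was called (-0.37, adjusted p 0.0311), as was day 7 minus day 4 (0.43, adjusted p 0.0475, against 0.32 and adjusted p 0.0891 with all arrays). Hk2 was also called lower at day 4 after centring on all genes tested (-0.37, adjusted p 0.0221), quantile normalization (-0.46, 0.00697) and centring on epithelial genes (-0.44, 0.0356). Centring on fibroblast genes gave the same call (-1.43, adjusted p 1.21e-05).

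At day 7 fewer of the enzymes differed from untreated. Aldoa and Pfkl were called higher on the deposited scale, and no member was called lower. After centring on fibroblast genes both lay below untreated in value but were not called (-0.26 and -0.31, adjusted p 0.303 and 0.254). In either direction 25% of the members were called, against 54.1% of all genes, and 5 of 8 had groups that did not overlap, against 62.4% of all genes. This is 2 of 8 higher, against 32.1% of all genes, and 0 of 8 lower, against 22.0% of all genes, by limma. At an unadjusted p under 0.05 there were 3 higher and 2 lower, and the lower ones were Pgk1 and Ldha. The member median was 0.08, against 0.09 for all genes, and 0 members differed by 2-fold, against 17.7% of all genes. Between day 7 and day 4, Pgk1 and Ldha were higher at day 7 (2 of 8, against 9.78% of all genes) and no member was lower (0 of 8, against 17.6%), with 3 higher and 0 lower at an unadjusted p under 0.05. In either direction this was 25% of the members, against 27.3% of all genes, and 3 of 8 had groups that did not overlap, against 51.7% of all genes. The comparisons of day 4 and day 7 with untreated share the untreated arrays.

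**Figure D2:**
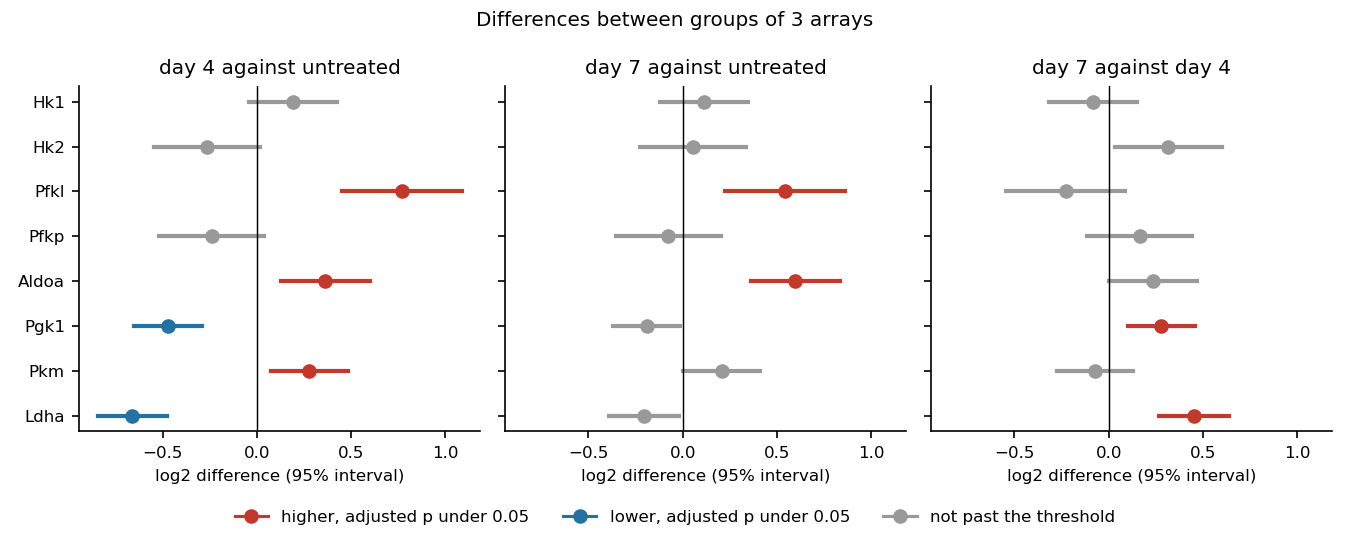
Log2 difference (x axis) of each enzyme gene in the 3 comparisons of groups of 3 arrays, with 95% intervals from the limma model; red and blue mark differences past an adjusted p of 0.05. At day 4, 3 genes lie above 0 and 2 below, at day 7 only Pfkl and Aldoa pass, and between the days Pgk1 and Ldha pass; the positive differences from untreated turn negative when arrays are centred on fibroblast genes.

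Several probe sets read the same enzyme, and they did not always give the same answer. Of the 19 probe sets 15 were tested, while 1 of Hk1, 1 of Pfkl and 2 of Pfkp were below detection on every array. Each called probe set of a gene pointed the same way as its brightest one. With every probe set on its own, 5 of the 15 were higher at day 4, against 38.5% of all 17819 probe sets tested, and 3 were lower, against 22.9%. At day 7, 5 of 15 were higher, against 30.1%, and 0 were lower, against 22.4%. Between day 7 and day 4, 3 were higher, against 9.87%, and 0 were lower, against 14.5%. All 5 Aldoa probe sets were higher at day 4 in value (0.16 to 0.45), and 2 of them passed. At day 7 the Aldoa differences were 0.40 to 0.71 and 4 of 5 passed. All 5 end in x_at, the maker's mark for probe sets that may also read related sequences. The 3 Pgk1 probe sets differed by -0.47, -0.37 and -0.19 at day 4, and the last, which is marked x_at, did not pass (adjusted p 0.0673). That probe set gave 9.49 on all 3 day 7 arrays, so it has no spread there. The second Pfkl probe set was detected on all 3 day 4 arrays and on 1 other and differed by 0.46 at day 4 (adjusted p 0.0389) and 0.05 at day 7 (adjusted p 0.823).

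**Figure D3:**
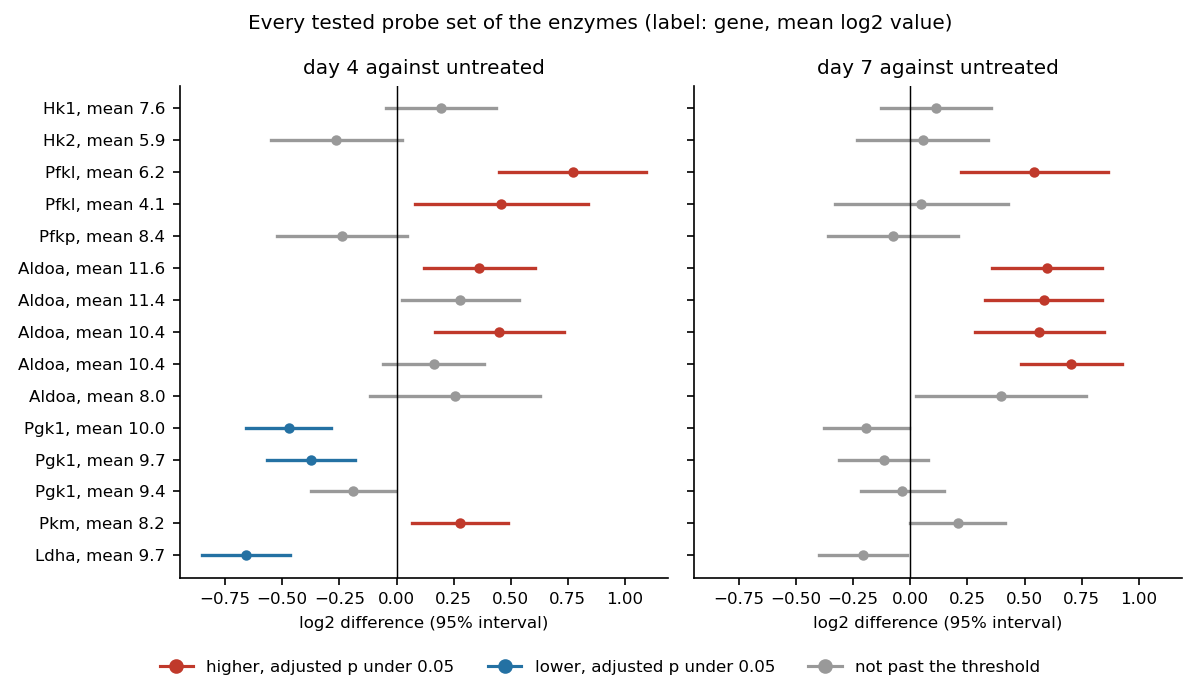
Log2 difference from untreated with 95% interval (x axis) for each of the 15 tested probe sets (y axis, gene and mean log2 value over 9 arrays), at day 4 and at day 7. Probe sets of 1 gene fall on the same side of 0; at day 7, 4 of the 5 Aldoa probe sets pass the threshold, against 2 at day 4.

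How the arrays are scaled decides part of these directions. The median of all genes tested differed from untreated by 0.20 at day 4 and 0.09 at day 7 on the deposited scale. It stood at 0.09 and 0.05 after centring on all genes tested, at 0.08 and 0.05 after quantile normalization, at 0.02 and 0.002 after centring on the epithelial genes, and at -0.97 and -0.77 after centring on the fibroblast genes. Centring shifts every gene alike, so it moves a gene against 0 but not against this median. All 9 fibroblast genes were called higher at both times, so centring on them lowers every difference from untreated by the same amount. Any rise smaller than that amount turns, whatever the gene. Of the genes called at day 4, 66.1% were higher on the deposited scale, against 57.8%, 57.1%, 52.9% and 4.39% under the other scalings in that order. The lower Ldha and Pgk1 values at day 4 were called under every scaling, with -0.83 to -0.61 and -0.64 to -0.34 over all alternatives other than centring on fibroblast genes, which gave -1.82 and -1.63.

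**Figure D4:**
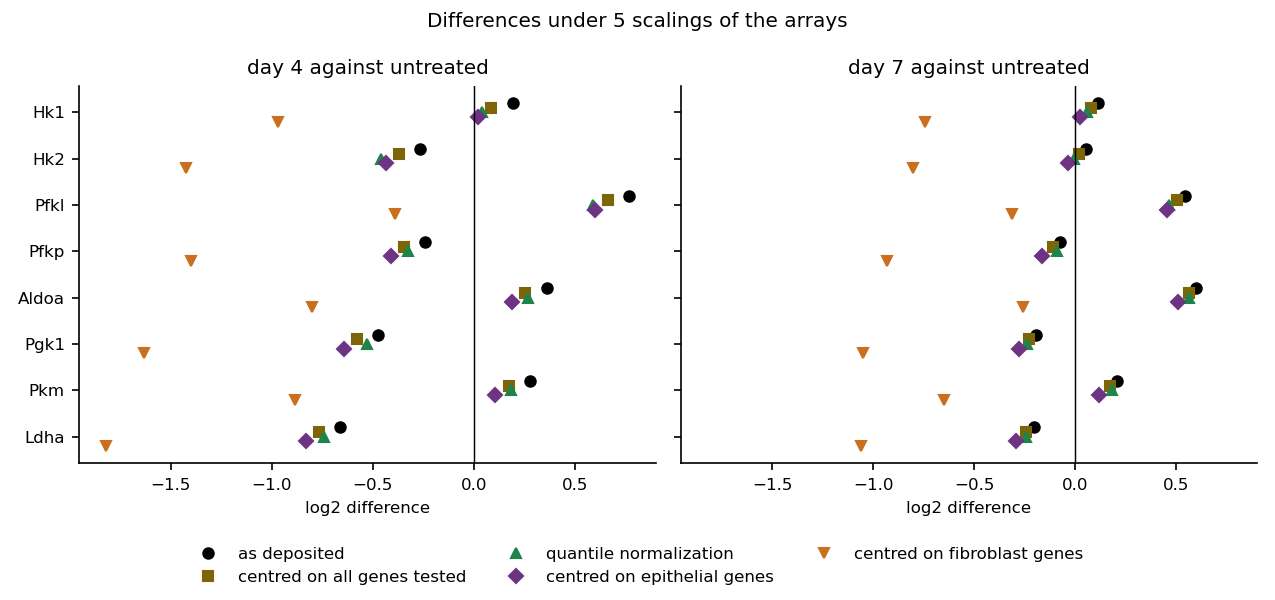
Log2 difference from untreated (x axis) of each enzyme gene at day 4 and day 7 with the deposited values and under 4 other scalings of the arrays. Ldha and Pgk1 stay below 0 under all 5; Pfkl, Aldoa and Pkm are above 0 under 4 and below 0 when arrays are centred on fibroblast genes.

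RNA quality also moved with the groups. The 3-prime minus 5-prime value of the array's Actb control was 3.13 ± 0.17 at day 4, against 2.28 ± 0.15 in untreated samples (SD, n = 3 each), and 2.51 ± 0.21 at day 7. The same measure of Gapdh, itself the glycolytic enzyme between aldolase and Pgk1, was 1.37 ± 0.24 at day 4, against 0.90 ± 0.13 in untreated samples, and 0.90 ± 0.21 at day 7. Each day 4 difference had a two-sided exact permutation p of 0.1, the smallest that 3 against 3 arrays allow. Its part in the enzyme results was not tested. No probe set other than these controls carried the Gapdh symbol alone. The 3-prime Gapdh control read 11.80, 11.90 and 11.89 at day 4, against 12.39, 12.45 and 12.35 in untreated samples, and 12.40, 12.43 and 12.37 at day 7. It was thus lower at day 4 without overlap and level with untreated at day 7, whereas Ldha and Pgk1 lay between at day 7.

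The neighbouring steps were followed with lists of 90 genes, of which 65 were tested. Of 4 tested genes of other steps 1 rose and 1 fell at day 4, and 2 rose and 1 fell at day 7. Of all genes 41.8% were higher and 21.4% lower at day 4, and 32.1% and 22.0% at day 7. Tpi1, the triose phosphate isomerase between aldolase and Gapdh, was not called (0.06 at day 4, adjusted p 0.57, and 0.21 at day 7, adjusted p 0.0733). Bpgm, which makes 2,3-bisphosphoglycerate in red cells, averaged 7.17 at day 4, against 9.88 in untreated samples (difference -2.71, SE 0.33, adjusted p 0.000135), and 7.39 at day 7 (-2.49, adjusted p 0.000378). The mean of the 2 tested genes of the 7 on the erythroid list, Alas2 and Tfrc, lay at 4.00 to 4.30 at day 4, 5.63 to 6.09 at day 7 and 8.72 to 10.09 in untreated samples. The listed Hba-a1, Klf1 and Epb42 did not reach the detection level on 3 arrays, so this mean leaves them out. The dividing-cell mean given above had the same order of groups, and which cells Alas2 and Tfrc read was not tested. Pgam2, the muscle phosphoglycerate mutase, averaged 6.86 at day 4, against 4.52 in untreated samples (2.34, SE 0.36, adjusted p 0.000464). Pgam1, the common form of that enzyme, was higher at day 7 by 0.36 (adjusted p 0.00592), a call lost after centring on epithelial genes (0.27, adjusted p 0.0647). Of the 4 tested isoenzymes of the member steps, 2 rose and 1 fell at day 4 (median 0.43). Pfkm, the muscle phosphofructokinase, rose by 0.79 (adjusted p 0.000613), and the neuronal enolase gene Eno2 by 1.16 (adjusted p 0.00864, with 1 untreated array below detection). Eno2 read 4.05 on untreated replicate 2 and on all 3 day 7 arrays, so its low values may be floor values. Ldhb, the heart-type lactate dehydrogenase, differed by -0.33 (adjusted p 0.037), a call lost without untreated replicate 1 or 2 or day 4 replicate 1 or 3 (adjusted p up to 0.123) and with no filter on dim genes (0.0623). Pfkfb2, an enzyme that makes the phosphofructokinase activator fructose 2,6-bisphosphate, rose by 0.78 at day 4 (adjusted p 0.0159), a call lost without day 4 replicate 2 (0.60, adjusted p 0.0586), with no filter on dim genes (adjusted p 0.0565) and after centring on epithelial genes (0.61, adjusted p 0.0528). The rises of Pfkm, Eno2, Pfkfb2 and Pgam1 turned when arrays were centred on fibroblast genes.

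The genes of glucose and lactate transport also moved in both directions. Of 6 tested, which include the carrier chaperone gene Bsg, 3 rose and 2 fell at day 4, against 41.8% of all genes higher and 21.4% lower, and 3 rose and 2 fell at day 7, against 32.1% and 22.0%. One of the 3 at both times, the lactate and pyruvate carrier gene Slc16a7, was below detection on all 3 untreated arrays (at least 1.02-fold higher at day 4 and 1.03-fold at day 7, adjusted p 0.00999 and 0.0109). It was also below detection on 1 day 4 array and 2 day 7 arrays, so these folds rest partly on undetected values. Slc2a3, the high-affinity glucose transporter of neurons and white blood cells, read 4.50, 4.83 and 4.66 at day 4, against 6.98, 7.03 and 7.22 in untreated samples, a fall of 5.32-fold (difference -2.41, SE 0.16, adjusted p 3.89e-06). It lay at 5.82, 5.26 and 5.70 at day 7, lower than untreated by 2.79-fold (adjusted p 0.000129) and 1.91-fold higher than at day 4 (adjusted p 0.00359). Slc16a1, a lactate and pyruvate carrier, averaged 8.38 at day 4, against 10.25 in untreated samples (-1.87, SE 0.21, adjusted p 8.95e-05), and was 2.39-fold higher at day 7 than at day 4 (adjusted p 0.00383). The means of both carriers were lowest at day 4 and between at day 7. Slc2a1, the transporter of basal glucose uptake, was not called, with 0.26 at day 4 (adjusted p 0.0636) and 0.24 at day 7 (adjusted p 0.0903). Bsg rose by 0.45 and 0.52 (adjusted p 0.00727 and 0.0047), and Slc2a4, the insulin-regulated transporter, by 0.92 at day 7 (adjusted p 0.000855). The Bsg rises turned after centring on fibroblast genes, and that of day 4 was not called after centring on epithelial genes (0.28, adjusted p 0.123). The Slc2a4 call at day 7 was lost after centring on fibroblast genes (0.06, adjusted p 0.801).

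The fate of pyruvate is set by the pyruvate dehydrogenase complex, which Pdk kinases switch off and Pdp phosphatases switch on. Of 12 tested genes of this group 4 rose and 2 fell at day 4, and 4 rose and 2 fell at day 7, with medians of 0.03 and 0.09. Of all genes 41.8% were higher and 21.4% lower at day 4, and 32.1% and 22.0% at day 7. Pdk1, a HIF-responsive kinase, read 7.79, 7.81 and 7.18 at day 4, against 9.10, 8.88 and 9.35 in untreated samples (-1.52, SE 0.18, adjusted p 0.000112), and 8.11, 8.02 and 8.07 at day 7 (-1.05, adjusted p 0.00136). The other kinases went the other way on the deposited scale. At day 4 Pdk4, Pdk2 and Pdk3 were higher by 2.06, 0.77 and 0.36 (adjusted p 0.00377, 0.0114 and 0.0158). The day 4 arrays of Pdk4 were widely spread, at 6.57, 8.11 and 5.91, against 4.57, 5.05 and 4.79 in untreated samples. At day 7 Pdk4 and Pdk3 were higher by 1.67 and 0.31 (adjusted p 0.0135 and 0.0352), and Pdk2 was not called. Pdp1 rose by 0.89 at day 4 and 0.92 at day 7 (adjusted p 8.73e-05 and 0.000145), and after centring on fibroblast genes the first turned and the second was lost (0.07, adjusted p 0.8). That centring shifts every gene alike, so the smaller Pdk2 and Pdk3 rises at day 4 also turned. So did the Pdk3 rise at day 7, which was smaller than the Bsg rise that turned. Pdhb, a subunit of the complex itself, fell by 0.46 and 0.39 on the log2 scale (adjusted p 0.00168 and 0.00551), and with the mean of its probe sets the differences were -0.0065 and -0.0032 (adjusted p 0.935 and 0.971). In the reverse pathway 2 of 8 genes were tested and both rose at day 4, the mitochondrial Pck2 by 1.04 and the pyruvate carboxylase gene Pcx by 0.83 (adjusted p 0.000231 and 0.00112), and both turned after centring on fibroblast genes.

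In the pentose phosphate pathway, which branches off after hexokinase and makes NADPH and ribose, 1 of 7 tested genes rose and 3 fell at day 4. Of all genes 41.8% were higher and 21.4% lower. Tkt, a transketolase that links the branch back to glycolysis, averaged 11.86 at day 4, against 12.54 in untreated samples (-0.68, SE 0.12, adjusted p 0.00127), and 11.79 at day 7 (-0.75, adjusted p 0.00107). Taldo1, the transaldolase of the same link, fell by 0.41 at day 4 (adjusted p 0.00875). H6pd, the enzyme that feeds glucose 6-phosphate into this route inside the endoplasmic reticulum, rose by 0.98 at day 4 (adjusted p 0.000226). Of 7 tested glycogen genes 5 rose and 0 fell at both times, with medians of 0.49 and 0.56, against 41.8% of all genes higher and 21.4% lower at day 4, and 32.1% and 22.0% at day 7. The glycogen phosphorylase gene Pygb rose by 0.91 and 1.06 (adjusted p 0.00023 and 0.000183), the phosphoglucomutase gene Pgm1 by 0.92 and 0.71 (adjusted p 0.000912 and 0.00513) and Ugp2, which makes UDP-glucose, by 0.49 and 0.56 (adjusted p 0.00197 and 0.00133). H6pd and these 3 glycogen genes turned at day 4 after centring on fibroblast genes, and at day 7 Pgm1 and Ugp2 turned and the Pygb call was lost (0.21, adjusted p 0.447). The Ugp2 call at day 4 was also lost after centring on epithelial genes (0.32, adjusted p 0.0866).

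The known regulators of the pathway did not move as 1 block. Of 8 tested HIF factors and regulators 2 rose and 1 fell at day 4 (median 0.16), against 41.8% of all genes higher and 21.4% lower. At day 7, 2 rose and 2 fell (median 0.09), against 32.1% and 22.0%. The HIF prolyl hydroxylase genes Egln2 and Egln3 moved apart at day 4, by 0.97 (adjusted p 6.14e-05) and -0.82 (adjusted p 0.0073). Egln1, the main oxygen sensor of this family, differed by 0.28 (adjusted p 0.0431), a call lost without untreated replicate 1 or 3, any day 4 array or day 7 replicate 1 (adjusted p up to 0.117), under all 4 other scalings, with the mean of its probe sets (0.10, adjusted p 0.229) and with no filter (0.0568). Epas1, which encodes HIF-2 alpha and is high in endothelium, was 3.16-fold higher at day 7 than in untreated samples (1.66, SE 0.36, adjusted p 0.00451), alongside the endothelial mean given above. It read 8.38, 8.67 and 10.06 on untreated arrays, against 10.69, 10.69 and 10.71 at day 7. Untreated replicate 3, the highest of these untreated values, also had the highest untreated endothelial mean (6.28). Leaving out 1 array kept the call, with differences of 1.33 to 2.17. Hif1an, which encodes an inhibitor of HIF, fell by 0.43 at day 7 (adjusted p 0.00813). Of 10 other HIF targets 4 rose and 2 fell at day 4, beside the same day 4 shares of all genes. Ddit4, a stress-induced inhibitor of mTOR signalling, was 1.98-fold lower at day 4 and 2.00-fold lower at day 7 (adjusted p 0.00014 and 0.000246), and Ankrd37 was below detection on every array at both times (adjusted p 0.000152 and 0.000663), at least 1.11-fold lower than in untreated samples. Vegfa, the endothelial growth factor, rose by 0.54 and 0.66 (adjusted p 0.00346 and 0.00169), and both turned after centring on fibroblast genes, as did Egln1 and Egln2. Its day 4 call was also lost after centring on epithelial genes (0.37, adjusted p 0.07). Myc was 1.61-fold lower at day 4 than in untreated samples (-0.69, SE 0.16, adjusted p 0.00407), and was 1.92-fold higher at day 7 than at day 4 (adjusted p 0.00324). Mycn was below detection at day 4, at least 2.84-fold lower than in untreated samples (adjusted p 0.000253), whereas Mycl rose 2.00-fold (adjusted p 0.0102; -0.16 after centring on fibroblast genes).

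**Figure D5:**
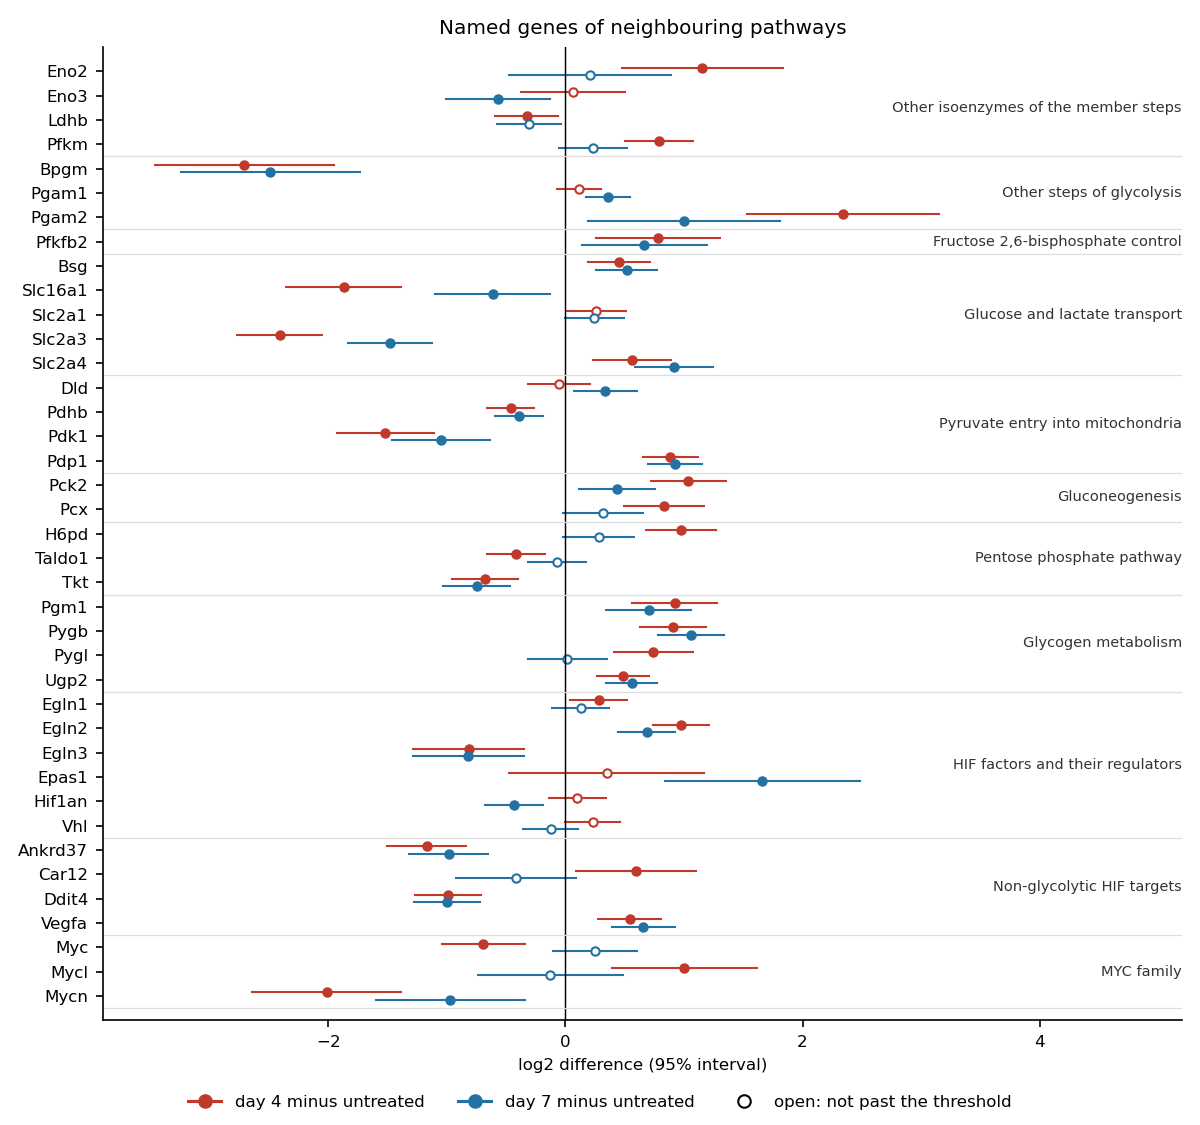
Log2 difference from untreated with 95% interval (x axis) of named genes of neighbouring pathways (y axis, grouped by list) at day 4 and day 7; filled points passed an adjusted p of 0.05. Slc2a3, Slc16a1, Pdk1, Bpgm and Mycn lie below 0 at both times, while the glycogen genes Pygb, Pgm1 and Ugp2 lie above 0 on the deposited scale and below it at day 4 after centring on fibroblast genes.

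Not all calls among the named neighbouring genes held when arrays were left out. Leaving out 1 array at a time kept 26 of 29 of them at day 4, 18 of 23 at day 7 and 8 of 19 between day 7 and day 4. The day 7 calls lost in this way were Eno3 (-0.57, adjusted p up to 0.113), Mycn (-0.97, up to 0.0564), Pck2 (0.44, up to 0.0735), Pfkfb2 (0.67, up to 0.115) and Pgam2 (2.00-fold, up to 0.137). Among those kept between the days, the glycogen phosphorylase gene Pygl differed by -0.72 (adjusted p 0.0081), H6pd by -0.69 (adjusted p 0.006), Pck2 by -0.60 (adjusted p 0.0143) and the carbonic anhydrase gene Car12 by -1.01 (adjusted p 0.0115). After centring on fibroblast genes none of these 4 was called (Pygl -0.42, H6pd -0.39, Pck2 -0.29 and Car12 -0.71, adjusted p 0.25, 0.286, 0.451 and 0.0798).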

How the data were processed

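The deposited table held 1 log2 value for each of 45101 probe sets and 9 arrays. These values were made by the authors with GCRMA, per the submitters' processing notes; neither a version nor settings of it are stated in what was used here, and the log2 base was inferred from the values. GCRMA corrects background by probe sequence, normalizes and summarises probes, and values at its lowest level of 2.27 have compressed differences. Scanner files were not used here. For each of 18193 genes with a single symbol, the probe set with the highest mean was kept, and the 10937 genes at 4 or more on at least 3 arrays were tested with limma 3.58.1 in R 4.3.3 (group as the only term, all 9 arrays). The step was checked on simulated data. The 20 alternatives were other filters, probe set summaries, variance models, scalings, a replicate block and leaving out each array.

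The members and lists were chosen with earlier results of these data known. The text names all members and, of each of 11 lists, up to 3 called genes per comparison by adjusted p. Slc2a1, Gapdh, Tpi1, Slc16a7, Pdk2, Pdk3 and Pdk4 are named beside these. Some of the calls are given as counts. RNA controls were compared by two-sided exact permutation tests. Upstream windows came from RefSeq on GRCm38.p6. Figures were drawn with matplotlib 3.10.9.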

Additional observations from a re-analysis of the deposited data

Results flagged for a closer look

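The transcript levels of 2 enzymes in these mixed preparations differed between the times, by the limma test of day 7 against day 4. Ldha was 0.45 higher at day 7 than at day 4 on the log2 scale (adjusted p 0.00478), with all 3 day 7 arrays above all 3 day 4 arrays. Pgk1 was 0.28 higher (adjusted p 0.0306), again in 3 of 3 arrays, but this call was lost without any 1 of the 6 arrays (adjusted p 0.0543 to 0.097). The thymocyte mean was also higher at day 7 than at day 4, and the Actb control's 3-prime minus 5-prime value was lower, 2.51 against 3.13; their part was not tested. Groups of 3 arrays are too small for a test of single outlying arrays.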

How the results depend on the processing

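Of the 9 called member differences, Ldha at day 4, Pgk1 at day 4 and Ldha between the days kept direction and call under all 20 alternatives. The counts were 3 higher and 2 lower at day 4, 2 and 0 at day 7, and 2 and 0 between the days. At day 4 the count of higher members was 1 after centring on epithelial genes and 0 after centring on fibroblast genes, and that of lower members was 4 after centring on all genes tested, quantile normalization or centring on epithelial genes and 7 after centring on fibroblast genes. At day 7 the mean of all probe sets gave 1 higher and 1 lower, fibroblast centring 0 higher and 6 lower, and the count of lower members was 2 with no filter, an intensity trend, centring on all genes tested or quantile normalization, and 1 at a detection level of 6 or with array weights. Between the days the count of higher members was 4 after centring on all genes tested and 1 after centring on fibroblast genes. Quantile normalization added Hk2 there (0.45, adjusted p 0.0212). Centring on all genes tested and quantile normalization each lost Pkm at day 4 (adjusted p 0.117 and 0.108). Array weights added Hk1 as higher (0.19, adjusted p 0.0451) and Pfkp as lower (-0.35, 0.00936) at day 4. They also added Pkm as higher at day 7 (0.18, adjusted p 0.0454) and Aldoa between the days (0.23, 0.0434). With every probe set on its own (5 higher and 3 lower at day 4, 5 and 0 at day 7, 3 and 0 between the days), day 4 gave 3 higher and 5 lower after centring on all genes tested or quantile normalization, 1 and 6 after epithelial centring, 0 and 15 after fibroblast centring, and 5 lower with array weights. At day 7 it gave 2 lower with no filter, an intensity trend, quantile normalization or epithelial centring, 1 with array weights, and 0 higher and 9 lower with fibroblast centring, and between the days 5 higher with an intensity trend or array weights. The cause of these shifts was not tested.

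Leaving out 1 array gave 2 to 4 members higher and 2 to 3 lower at day 4, 2 higher and 0 to 1 lower at day 7, and 1 to 2 higher and 0 lower between the days; for probe sets the ranges were 2 to 6 and 3 to 4, 5 to 6 and 0 to 1, and 2 to 4 and 0 to 1. The labels number the replicates 1 to 3 in each group without saying that numbers mark a shared batch. Deviations of same-numbered samples correlated at -0.12 to 0.18, and in 3 of 9 pairs the own number correlated best, so the numbers were not taken as pairs. With a replicate block the counts were 3 higher and 2 lower at day 4, 2 and 0 at day 7, and 1 and 0 between the days, where Pgk1 was lost (0.28, adjusted p 0.0705); probe sets gave 5 and 3, 5 and 0, and 2 and 0. Among the neighbouring genes the block took the adjusted p past the threshold for Ldhb (0.0707) and Egln1 (0.0823) at day 4, for Pgam2 (0.0688), Pfkfb2 (0.0602) and Pck2 (0.05) at day 7, and for Dld (0.0718), Taldo1 (0.0696) and Vhl (0.0611) between the days.

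Centring on fibroblast genes reversed Hk1 (-0.97 at day 4, -0.74 at day 7 and 0.23 between the days), Hk2 at day 7 (-0.80), Pfkl (-0.39, -0.31 and 0.078), Aldoa (-0.80 and -0.26) and Pkm (-0.88, -0.65 and 0.23). Small differences that were not called also changed sign: Hk1 between the days with the mean of probe sets (0.053), quantile normalization (0.017) and epithelial centring (0.0037), Hk2 at day 7 without day 7 replicate 3 (-0.041; 0.13 without day 7 replicate 1), with quantile normalization (-0.0071) and with epithelial centring (-0.033), Pfkp at day 7 without untreated replicate 1 (0.0003; -0.18 without untreated replicate 3), and Pkm between the days with quantile normalization (0.0002) and epithelial centring (0.013). Among the other genes, fibroblast centring reversed day 4 differences of Slc2a1 (-0.90), Pfkm (-0.37), Pfkfb2 (-0.38), Eno2 (-0.0069), Bsg (-0.71), Pdp1 (-0.28), Pck2 (-0.13), Pcx (-0.33), H6pd (-0.19), Pygb (-0.26), Pgm1 (-0.24), Ugp2 (-0.68), Egln2 (-0.19), Egln1 (-0.88), Vegfa (-0.62) and Mycl (-0.16), and day 7 differences of Slc2a1 (-0.61), Pgam1 (-0.50), Pfkfb2 (-0.19), Bsg (-0.34), Pck2 (-0.42), Pgm1 (-0.15), Ugp2 (-0.30), Egln2 (-0.17) and Vegfa (-0.20). Without the filter 36.8%, 29.8% and 11.8% of genes were called in the 3 comparisons, against 63.2%, 54.1% and 27.3%, over more and dimmer genes.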
